A study of Mus musculus with 4 samples.

Results

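Some olfactory sensory neurons (OSNs) of the main olfactory epithelium (MOE) do not use the usual cAMP signaling cascade. The genes described here are 6 genes known from such cells, taken by name from the 24421 genes of the expression table, with no threshold on a measured value. Of these, 4 (*Gucy2d*, *Pde2a*, *Cnga3*, and *Car2*) are genes of guanylyl cyclase D (GC-D) neurons, and 2 (*Trpc2* and *Gucy1b2*) are genes of a separate population of *Trpc2*-expressing OSNs. All 6 genes were found in the table.

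The study asked whether 2 enhancers of the *Taar* gene cluster, which encodes receptors for volatile amines, drive reporter expression in TAAR OSNs. FACS-sorted MOE cells of mice with PiggyBac transgenes were analysed in 4 RNA-seq libraries, with 1 library per group. The TAAR enhancer 1-GFP line gave GFP-positive and GFP-negative cells, and the TAAR enhancer 2-tdTomato line gave tdTomato-positive and tdTomato-negative cells. In both lines the enhancer was placed before the Hsp68 minimal promoter, and each line came from 1 founder. The labels give the strain as C57BL/6, the methods name C57BL/6J eggs for the injection, and the study's reporting summary speaks of mixed backgrounds with another strain for its mouse lines. The labels call the mice adult, while that summary places both lines in the second or the third postnatal week. Neither source gives the number of animals behind a library. The sort was gated on the reporter, so the reporter-negative libraries hold every other cell type that survived dissociation, and the reporter-positive libraries hold whatever else passed the gate.

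GC-D neurons carry a receptor guanylyl cyclase, the product of *Gucy2d*, on their cilia and signal through cGMP. Cyclic GMP opens a cation channel that contains the *Cnga3* subunit, and *Pde2a* encodes the phosphodiesterase that breaks cGMP down. *Car2* encodes carbonic anhydrase II, which turns carbon dioxide into bicarbonate, and these neurons are known for responses to carbon dioxide, carbon disulfide, and the peptides guanylin and uroguanylin. *Trpc2* encodes the cation channel of vomeronasal transduction and is also expressed in a small set of MOE neurons. Some of those neurons express *Gucy1b2*, a subunit of soluble guanylyl cyclase, and respond to low oxygen. *Car2* and *Pde2a* are not restricted to neurons, since *Car2* is also a gene of red blood cells and epithelia and *Pde2a* of endothelial and immune cells.

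The values are transcripts per 1000000 (TPM), a unit per transcript length and per library total, so genes can be ordered within a library. Read numbers are not kept in this unit, and no intervals or detection limits were calculated. Differences between libraries are given as log2(TPM + 1), positive minus negative, and a gene is called higher or lower when the difference reached 2-fold on this scale. Folds printed beside TPM values are ratios of the TPM values themselves, without the added 1, and are larger than the called differences where values are low. With 1 library per group there is no replicate check, no test, and no p-value. In bulk libraries, fewer cells of a type and less RNA per cell cannot be told apart. Each library held between 15096 and 16840 genes above 0 TPM. The 10 highest genes took 31.5% of the TPM in GFP-positive cells and from 5.72% to 9.44% in the other libraries. The labelled tissue was checked with 10 genes of mature OSNs (*Omp*, *Gnal*, *Adcy3*, *Cnga2*, *Cnga4*, *Cngb1*, *Ano2*, *Stoml3*, *Rtp1*, and *Rtp2*), and the lowest value of any was 21.5 TPM. Their geometric mean was 1135, 133, 1308, and 623 TPM in the GFP-negative, GFP-positive, tdTomato-negative, and tdTomato-positive libraries.

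The 6 genes lie on chromosomes 1, 3, 7, and 14 in the GENCODE M21 annotation of GRCm38, the assembly also called mm10. *Gucy2d* runs from 98440416 to 98477479 on the plus strand of chromosome 7, with 20 merged exons. *Pde2a*, from 101421691 to 101512827, and *Trpc2*, from 102083116 to 102096396, are on the same strand of that chromosome. *Cnga3* is on the plus strand of chromosome 1 from 37214434 to 37263384, and *Car2* on the plus strand of chromosome 3 from 14886273 to 14900770. *Gucy1b2* is on the minus strand of chromosome 14 from 62392676 to 62456289, with 18 merged exons.

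The RefSeq promoter table for GRCm38 holds 5 of the 6 genes, all except *Car2*. The 250 bases before the start of both guanylyl cyclase genes are shown because they are the genes that mark the 2 neuron types, and *Cnga2*, the channel subunit of canonical OSNs, is shown beside them. The sequences run 5′ to 3′ on the strand of the gene. Capitals mark the motif CCCNNGGG, the core bound by Olf/Ebf factors, which are known regulators of OSN genes. The windows are chr7:98440166-98440415 for *Gucy2d*, chr14:62456290-62456539 on the minus strand for *Gucy1b2*, and chrX:71991599-71991848 for *Cnga2*.
Gucy2d: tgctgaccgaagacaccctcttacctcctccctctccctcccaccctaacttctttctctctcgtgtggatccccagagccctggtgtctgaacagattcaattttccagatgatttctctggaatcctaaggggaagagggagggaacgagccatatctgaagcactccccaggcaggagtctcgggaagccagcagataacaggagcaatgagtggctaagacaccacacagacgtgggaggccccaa
Gucy1b2: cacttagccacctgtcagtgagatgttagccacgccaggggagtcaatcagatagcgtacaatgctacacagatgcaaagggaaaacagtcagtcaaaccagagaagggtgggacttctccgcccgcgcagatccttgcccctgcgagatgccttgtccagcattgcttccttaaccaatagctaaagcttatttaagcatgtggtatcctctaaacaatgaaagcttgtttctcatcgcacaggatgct
Cnga2: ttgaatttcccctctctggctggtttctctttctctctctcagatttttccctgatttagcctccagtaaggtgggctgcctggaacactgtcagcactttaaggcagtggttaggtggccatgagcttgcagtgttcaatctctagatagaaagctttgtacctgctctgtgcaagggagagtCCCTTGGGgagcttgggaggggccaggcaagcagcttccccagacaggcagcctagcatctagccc

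The motif reads the same on both strands. It was present in 11.8% of the 32851 promoter windows of 250 bases in the table. None of the 10 windows of the 5 genes held it, and the windows of 4 of the 7 mature OSN genes in the table (*Ano2*, *Cnga2*, *Cngb1*, and *Rtp2*) did. The homeodomain motif TAATTA, which also reads the same on both strands and does not overlap the first, was in 4.84% of all windows. It was absent from the windows of both gene sets. These counts describe letters in these windows and were not compared with binding.

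*Gucy2d*, the gene that defines GC-D neurons, had a level above 1 TPM in 1 library only. Its level was 0.633 TPM in the GFP-negative, 0.107 TPM in the GFP-positive, and 11.0 TPM in the tdTomato-negative library, and it was listed at 0 in tdTomato-positive cells. The tdTomato-negative library was therefore the high one, and the GFP pair was under 1 TPM on both sides. With TPM as deposited, both reporter-positive libraries had less *Gucy2d* than the reporter-negative library of the same line, and in the GFP line this order turned with scaling to mature OSN genes. In the GFP line the values were too low for the 1 TPM minimum that was set for calls, and in the tdTomato line no fold is given against a value of 0.

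*Cnga3*, which encodes the cGMP-gated channel subunit, was above 0 in that same library only. It was listed at 1.39 TPM in tdTomato-negative cells and at 0 in GFP-negative, GFP-positive, and tdTomato-positive cells. Where it was found, there were 12.7 TPM of *Cnga3* for every 100 TPM of *Gucy2d*. Such a low value carries little weight without a known read number. *Cnga3* passed the 1 TPM minimum only through the library where it was high, so it had to be lower in tdTomato-positive cells, and the same holds for *Gucy2d*.

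*Pde2a*, the cGMP-stimulated phosphodiesterase, was high in both reporter-negative libraries. Its level was 41.1 TPM in the GFP-negative and 3.91 TPM in the GFP-positive library, a 10.5-fold lower level with a log2 difference of -3.10. In the tdTomato line it was 33.0 TPM in negative cells and 6.89 TPM in positive cells, 4.79-fold lower with a log2 difference of -2.11. The reporter-negative libraries were both above the reporter-positive ones and differed 1.25-fold from each other.

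*Car2*, which encodes carbonic anhydrase II, had the highest level of the 6 genes in every library. It was 131 TPM in the GFP-negative and 37.0 TPM in the GFP-positive library, 3.53-fold lower with a log2 difference of -1.79. It was 282 TPM in the tdTomato-negative and 36.0 TPM in the tdTomato-positive library, 7.84-fold lower with a log2 difference of -2.94. The reporter-positive libraries had nearly equal levels, 1.03-fold apart, while the reporter-negative libraries differed 2.16-fold.

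*Gucy1b2*, of the *Trpc2* neuron type, differed in opposite directions. It was 9.30 TPM in the GFP-negative and 1.98 TPM in the GFP-positive library, 4.71-fold lower with a log2 difference of -1.79. In the tdTomato line it was 2.95 TPM in negative and 11.8 TPM in positive cells, 3.99-fold higher with a log2 difference of 1.69. The GFP-negative and tdTomato-positive libraries were thus the high ones in TPM as deposited, and the order by reporter differed between the lines on that scale. Of 15033 genes that reached 1 TPM in each line, 1.76% were called lower in the GFP line and higher in the tdTomato line. No member had the opposite pair of calls, which 1.50% of all genes had. The difference between the lines was not tested, and enhancer, reporter, founder, and age cannot be told apart in it.

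*Trpc2* itself was listed at 0 in all 4 libraries. *Gucy1b2* was therefore measured without the channel gene that names its neuron type. An exact 0 in this table need not mean that no transcript was present. It was the value of 6004 genes (24.6%) in all 4 libraries, and the ribosomal protein gene *Rpl26* was among them.

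**Figure D1:**
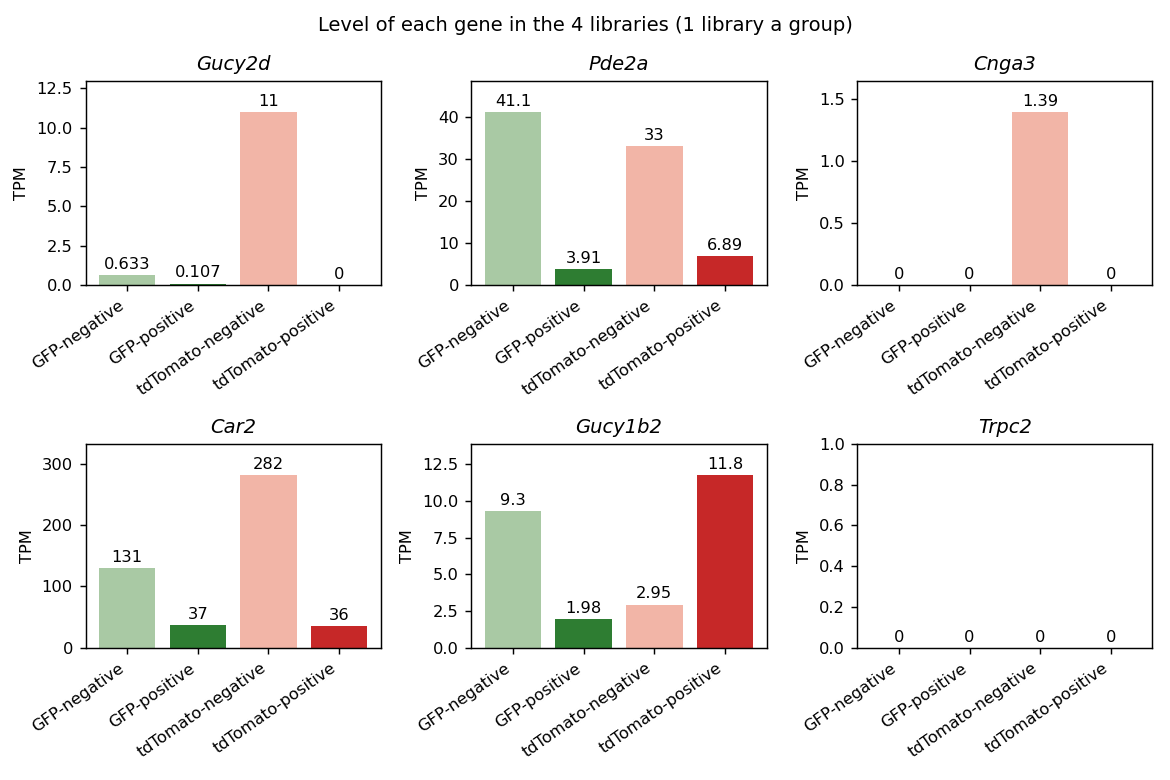
Bars show the TPM of each gene, on a linear axis of its own, in GFP-negative, GFP-positive, tdTomato-negative, and tdTomato-positive cells, with 1 library per bar and no error bars. *Gucy2d* (11.0 TPM) and *Cnga3* (1.39 TPM) stand out in tdTomato-negative cells, *Pde2a* and *Car2* are higher in both reporter-negative libraries, *Gucy1b2* is high in GFP-negative and tdTomato-positive cells, and *Trpc2* is at 0 throughout.

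The value of *Trpc2* has to be read together with its neighbours, since the locus is shared by 3 annotated genes on 1 strand. *Xntrpc* is a longer gene that runs through *Xndc1* and *Trpc2*, and 97.5% of the exon bases of *Trpc2* are also exon bases of *Xntrpc*. Only 2.47% are shared with *Xndc1*. Of the 31-base windows of the *Trpc2* transcripts, the default word length of a Salmon index, 99.0% also occur in another gene. The shared exons cannot be assigned to either gene by their sequence, and *Xntrpc* was also listed at 0 in all libraries. *Xndc1*, upstream of the channel exons, was 6.18, 3.06, 4.72, and 0.874 TPM in the GFP-negative, GFP-positive, tdTomato-negative, and tdTomato-positive libraries.

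**Figure D2:**
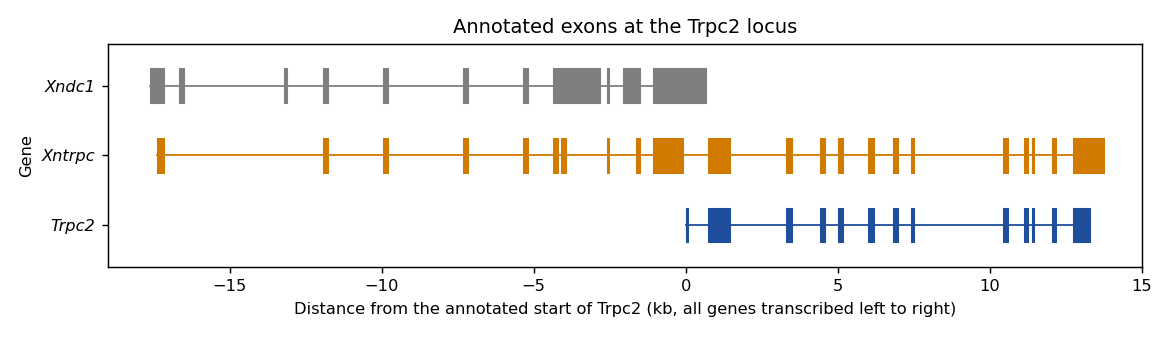
Boxes are annotated exons and lines are introns of *Xndc1*, *Xntrpc*, and *Trpc2*, drawn by distance in kb from the annotated start of *Trpc2*. The *Trpc2* exons after the first coincide with *Xntrpc* exons (2803 shared exon bases), while *Xndc1* ends near the start of *Trpc2*.

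The other members were less exposed to shared sequence. None of the 31-base windows of *Gucy2d*, *Car2*, and *Gucy1b2* transcripts occurs in another gene, and 1.57% of those of *Cnga3* do. For *Pde2a* the share is 63.8%, nearly all of it with *Gm45837*, an annotated gene on the same strand that has no row in the table.

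In the GFP line, 3 of the 6 genes reached 1 TPM, and all 3 were called lower in GFP-positive cells. Among all 16173 genes with at least 1 TPM in this line, 45.0% were called lower and 14.2% higher. After median-ratio scaling, which divides each library by the median ratio of its genes to their means over the libraries, 21.7% were lower and 21.4% higher, and 2 of the 3 members were still called lower, while *Car2* had a log2 difference of -0.92. In the tdTomato line, 5 genes reached 1 TPM, of which 4 were called lower and 1 (*Gucy1b2*) higher. The calls of *Gucy2d* and *Cnga3* among the 4 were fixed by the minimum, which leaves *Pde2a* and *Car2*, and the count is not read against the share of all genes. Of 15777 genes tested there, 23.2% were lower and 17.2% higher. The median log2 difference was -1.79 over the 3 genes in the GFP line, where the median of all genes was -0.88. In the tdTomato line, where the median of all genes was -0.23, *Pde2a* was at -2.11, *Car2* at -2.94, and *Gucy1b2* at 1.69. *Pde2a* was farther out than most, since 6.26% of all genes in the GFP line and 10.6% in the tdTomato line were at least as low. *Car2* had 20.2% of the genes at least as low in the GFP line and 6.90% in the tdTomato line. Against 45.0% of all genes, 3 genes called lower in the GFP line are too few to set the members apart.

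**Figure D3:**
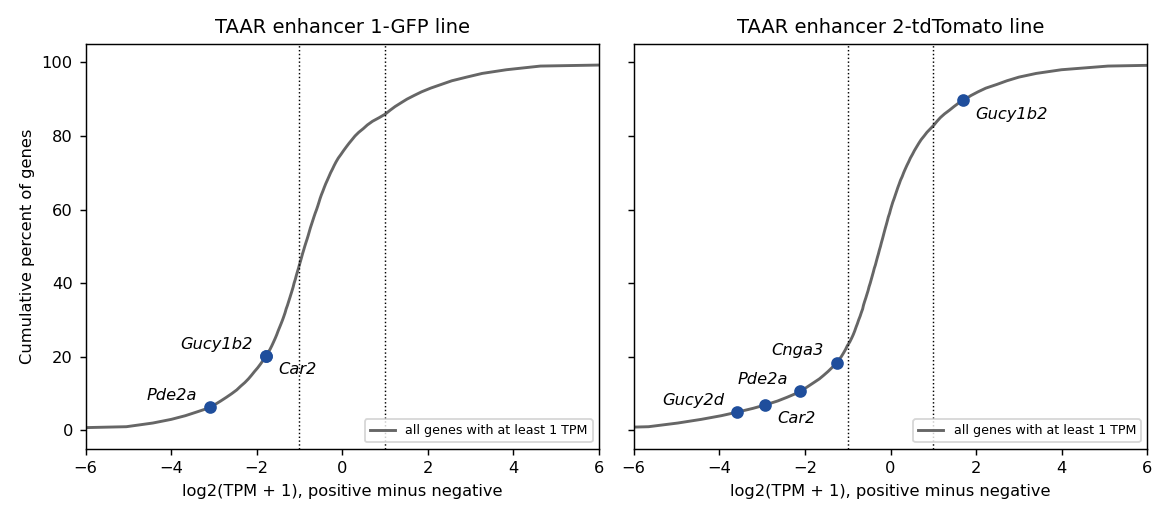
The curve gives the cumulative percent of genes (y axis) by their log2(TPM + 1) difference, positive minus negative (x axis), and points mark the members with at least 1 TPM, with dotted lines at 2-fold. The GFP-line points lie at -3.10 and -1.79, where *Car2* and *Gucy1b2* coincide, while in the tdTomato line *Gucy1b2* alone lies to the right; *Gucy2d* and *Cnga3* are listed at 0 in tdTomato-positive cells, so that their positions depend on the added 1.

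The mature OSN genes were compared in the same way. All 10 were called lower in the GFP line, with a median log2 difference of -3.08, beside 45.0% and a median of -0.88 over all genes. In the tdTomato pair 5 of 10 were called lower, with a median of -1.08, beside 23.2% and a median of -0.23 over all genes. Per 1000 TPM of the mature OSN mean, *Pde2a* was 36.2 TPM in the GFP-negative and 29.4 TPM in the GFP-positive library. On that scale *Pde2a* was 25.2 TPM in the tdTomato-negative and 11.1 TPM in the tdTomato-positive library. *Car2* was 115 and 278 TPM per 1000 in GFP-negative and GFP-positive cells, a higher level in the positive cells, and 215 and 57.7 TPM per 1000 in tdTomato-negative and tdTomato-positive cells. *Gucy1b2* was 8.19 and 14.9 TPM per 1000 in the GFP pair and 2.25 and 18.9 TPM per 1000 in the tdTomato pair, so that relative to mature OSN genes it was higher in the positive cells of both lines. *Gucy2d* was 0.558 and 0.805 TPM per 1000 in the GFP pair, from values under 1 TPM. The direction of *Car2*, *Gucy1b2*, and *Gucy2d* in the GFP line thus depended on the reference.

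**Figure D4:**
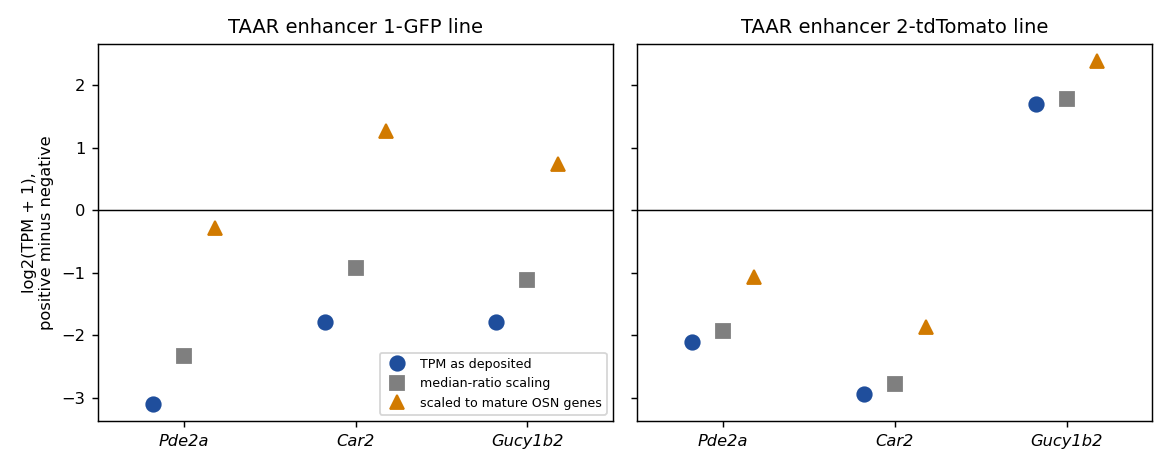
Points give the log2(TPM + 1) difference, positive minus negative, of *Pde2a*, *Car2*, and *Gucy1b2* with TPM as deposited (circles), after median-ratio scaling (squares), and after scaling to the mean of the 10 mature OSN genes (triangles). In the GFP line *Car2* moves from -1.79 to 1.26 and *Gucy1b2* from -1.79 to 0.74, while in the tdTomato line the 3 genes keep their side of 0.

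The reporter-negative libraries of the lines were set side by side, and *Gucy2d* was the member above 0 in both that differed most. Its log2(TPM + 1) difference, tdTomato-negative minus GFP-negative, was 2.88. The ratio of its TPM values was 17.3, over a GFP-negative value under 1 TPM. *Car2* was called higher there (log2 difference 1.10), as were 11.4% of the 15899 genes compared. *Gucy2d* and *Cnga3* passed the 1 TPM minimum only through the tdTomato-negative library, so their calls as higher were fixed by it and are not read against that share. *Gucy1b2* was called lower, 3.16-fold, against 12.4% of all genes, and *Pde2a* was within 2-fold. The ratio of the GC-D genes to each other was not kept. There were 33.3 TPM of *Gucy2d* for every 100 TPM of *Pde2a* in tdTomato-negative cells and 1.54 TPM in GFP-negative cells. A high *Pde2a* level thus came with a *Gucy2d* level under 1 TPM in GFP-negative cells. Between the reporter-positive libraries, *Gucy1b2* was 5.95-fold higher in tdTomato-positive cells, where 34.9% of all genes were called higher. *Pde2a* and *Car2*, the only other members that reached 1 TPM in these libraries, were called in neither direction, against 11.7% of all genes called lower.

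Within its gene family, *Gucy2d* was the highest of 11 guanylyl cyclases in tdTomato-negative cells, with 44.4% of the family's TPM. *Gucy1b2* was the highest in GFP-negative cells (44.1%) and in tdTomato-positive cells (86.7%). *Gucy2c*, the guanylin receptor of the gut, was 4.92, 5.51, 4.63, and 1.35 TPM in the GFP-negative, GFP-positive, tdTomato-negative, and tdTomato-positive libraries. *Npr2*, the receptor of C-type natriuretic peptide, was 5.02, 0.894, and 5.47 TPM in these libraries in the same order and was listed at 0 in the last. The other cyclase genes, among them *Gucy2e* and *Gucy2f* of photoreceptors, *Gucy2g* of the Grueneberg ganglion, *Npr1*, and the soluble subunits *Gucy1a2*, *Gucy1a3*, and *Gucy1b3*, stayed below 1 TPM in every library. *Gucy1b2* therefore had no alpha subunit gene above 1 TPM beside it.

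The cyclic nucleotide-gated (CNG) channel genes were dominated by the subunits of canonical OSNs. *Cnga2* was 1091 TPM in the GFP-negative and 146 TPM in the GFP-positive library, and 1216 TPM in the tdTomato-negative and 541 TPM in the tdTomato-positive library. *Cnga3* made up 0.0625% of the TPM of the 6 channel genes in the library where it was found. *Cnga1* and *Cngb3*, channel subunits known from rods and cones, were also highest in tdTomato-negative cells, at 1.90 and 4.25 TPM. *Cnga1* was listed at 0 in the other libraries, and *Cngb3* was 0.182 TPM in GFP-positive cells and listed at 0 in the remaining libraries.

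Among TRPC channels, *Trpc1* was 39.6, 22.4, 43.5, and 68.8 TPM in the GFP-negative, GFP-positive, tdTomato-negative, and tdTomato-positive libraries. *Trpc4* was 3.97, 0.694, 4.29, and 1.02 TPM in the same order. *Trpc5*, *Trpc6*, and *Trpc7* were listed at 0 in all libraries, as *Trpc2* was.

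**Figure D5:**
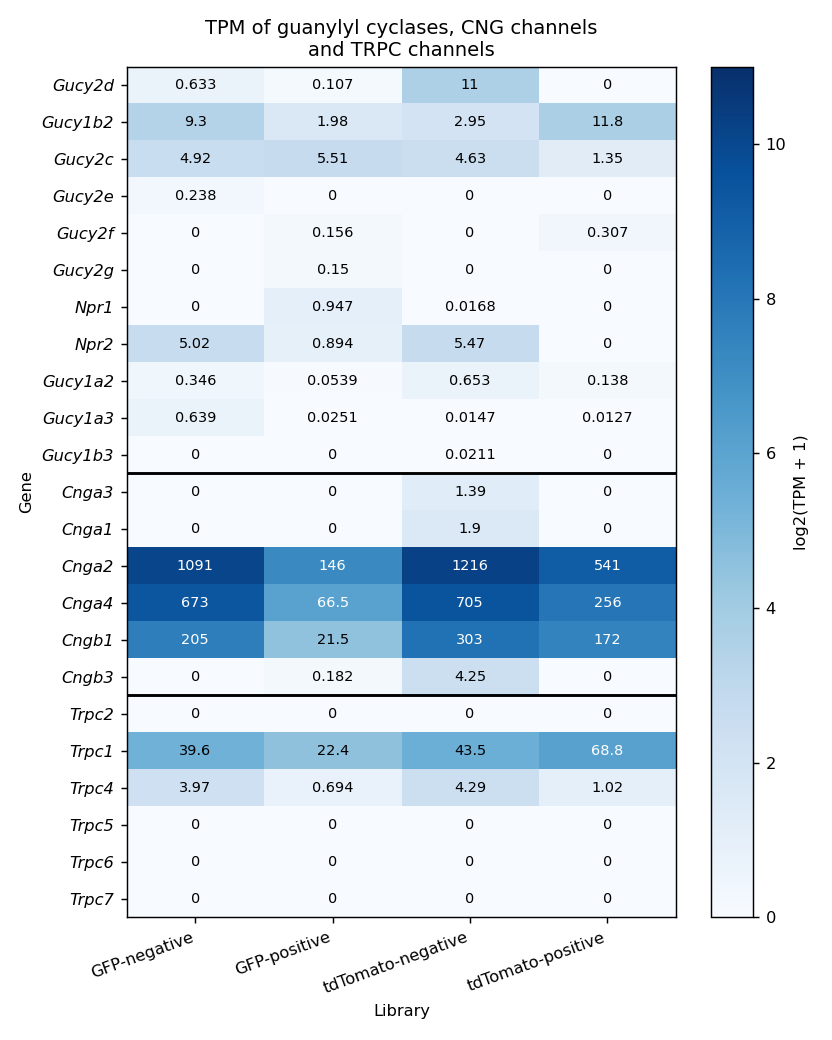
Each cell prints the TPM of the guanylyl cyclase, CNG channel, and TRPC channel genes described here (rows) in each library (columns), with color on a log2(TPM + 1) scale from 0 to 11. *Gucy2d*, *Cnga3*, *Cnga1*, and *Cngb3* have their highest value in tdTomato-negative cells, as do *Cnga2*, *Cnga4*, *Cngb1*, *Npr2*, *Gucy1a2*, *Gucy1b3*, and *Trpc4*, and *Trpc2* is at 0 in every column.

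*Pde2a* was the 6th of 24 phosphodiesterase genes by TPM in both reporter-negative libraries, and the 10th and 11th in the reporter-positive libraries of the GFP and tdTomato lines. Of the other 23 genes, 17 reached 1 TPM in the GFP line, with 9 called lower and 1 called higher in the positive cells, beside 45.0% and 14.2% of all genes. With scaling to mature OSN genes these counts were 0 lower and 9 higher, beside 7.72% and 77.1% of all genes. With median-ratio scaling they were 8 lower and 4 higher, beside 21.7% and 21.4% of all genes. Among tdTomato cells 19 reached 1 TPM, and 9 were lower and 4 higher, where 23.2% and 17.2% of all genes were called. With scaling to mature OSN genes 4 were lower and 6 higher, where 12.3% and 39.3% of all genes were. Several of the called genes passed the minimum only through the library where they were high, so their direction was fixed by it. The tdTomato counts are therefore not read against these shares. *Pde4a*, a cAMP phosphodiesterase of OSNs, was 276 and 32.3 TPM in GFP-negative and GFP-positive cells and 373 and 240 TPM in the tdTomato pair. *Pde9a*, a cGMP-specific enzyme, was 10.1 and 19.8 TPM in the GFP pair and 6.47 and 35.4 TPM in the tdTomato pair, with log2 differences of 0.91 and 2.29.

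*Car2* made up 58.8% of the TPM of 16 carbonic anhydrase genes in GFP-negative and 74.9% in tdTomato-negative cells. Its share was 10.5% in GFP-positive cells, where *Car6*, a secreted enzyme of glands, was highest at 254 TPM, and 39.5% in tdTomato-positive cells. Of the other 15 genes, 10 reached 1 TPM in the GFP line, with 6 higher and 4 lower in GFP-positive cells. With scaling to mature OSN genes 7 were higher and 0 lower, where 77.1% and 7.72% of all genes were. For the tdTomato pair 9 reached 1 TPM, with 2 higher and 6 lower. Most of these genes passed the minimum only through the library where they were high, so their direction was largely fixed by it. The counts are therefore not read against the shares of all genes. These were 14.2% higher and 45.0% lower in the GFP line, and 17.2% and 23.2% in the tdTomato line.

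Other genes linked to GC-D neurons were read from a list of Ms4a proteins, which are known as chemoreceptors of these neurons, calcium sensors, and peptide ligands. Of 16 *Ms4a* genes in the table, 7 were below 1 TPM in every library. In the GFP line 9 reached 1 TPM, all 9 lower in GFP-positive cells, and their summed TPM was 373 in GFP-negative and 8.81 in GFP-positive cells. For the tdTomato pair 7 reached 1 TPM, all 7 lower, with sums of 216 and 4.20 TPM. Most of these genes passed the minimum only through the reporter-negative library, so their direction was largely fixed by it, and the counts are not read against the shares of 45.0% and 23.2% of all genes called lower. Several of the *Ms4a* genes are also genes of blood cells. *Ms4a1*, which encodes the B cell protein CD20, was 72.8 TPM in the GFP-negative and 24.9 TPM in the tdTomato-negative library, and *Ms4a4b*, of T cells, was 86.7 and 77.2 TPM. *Hpca*, which encodes the calcium sensor hippocalcin, was listed at 0.522 TPM in tdTomato-negative cells and at 0 in the rest. *Ncald*, which encodes neurocalcin delta, was higher in reporter-positive cells, at 7.56 and 21.5 TPM in the GFP pair and 8.67 and 40.2 TPM in the tdTomato pair. *Guca2b*, which encodes uroguanylin, was between 1.10 and 2.40 TPM in all libraries.

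Vomeronasal genes gave the setting for *Trpc2*. Of 211 *Vmn1r* genes, 3 were above 0 in GFP-negative cells, 1 in tdTomato-positive cells, and 0 in the other libraries. Of 127 *Vmn2r* genes, from 2 to 5 were above 0 in each library, and the highest value was that of *Vmn2r29* at 8.07 TPM. The formyl peptide receptor genes *Fpr-rs3*, *Fpr-rs4*, and *Fpr-rs6* were listed at 0 in all libraries. *Gnao1* and *Gnai2*, the G protein genes of vomeronasal neurons, are widely expressed and were at least 19.6 TPM in every library.

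Markers of other cell types that express these genes moved with some of them. All 6 macrophage markers were called lower in GFP-positive cells and 5 of 6 in tdTomato-positive cells, beside 45.0% and 23.2% of all genes. With scaling to mature OSN genes these counts were 0 and 3, beside 7.72% and 12.3% of all genes. The summed TPM of these 6 markers was 853, 74.7, 231, and 73.2 in GFP-negative, GFP-positive, tdTomato-negative, and tdTomato-positive cells. The 7 B and T cell markers were all lower in both lines, with sums of 647, 1.96, 359, and 6.63 TPM in the same order. Most of these 7 passed the minimum only through the reporter-negative library, so their direction was largely fixed by it, and the count is not read against all genes. The part of these cells in the *Pde2a* and *Car2* differences was not tested. The 7 endothelial markers had sums of 52.4, 1.58, 42.9, and 6.45 TPM. Of these sums *Pecam1*, also a leukocyte gene, made up 41.2, 1.10, 41.0, and 6.29 TPM, while the defining endothelial gene *Cdh5* was at most 1.79 TPM and *Emcn* was above 1 TPM in GFP-negative cells only. The hemoglobin genes were listed at 0 in all libraries, and the other 3 erythroid markers had sums of 112, 4.95, 32.4, and 8.61 TPM. The part of red blood cells in the *Car2* values was not tested.

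Tuft cell and ionocyte markers were also compared, as both are rare epithelial cells of the MOE. The 8 tuft cell markers in the table had sums of 57.1, 21.0, 126, and 14.5 TPM in GFP-negative, GFP-positive, tdTomato-negative, and tdTomato-positive cells. *Trpm5*, the cation channel of tuft cells, was 5.94, 5.43, 35.5, and 0.620 TPM, so that its high library was that of *Gucy2d*. The part of these cells in the *Gucy2d* and *Cnga3* values was not tested. The 6 ionocyte markers had sums of 163, 690, 801, and 675 TPM, and their part in the *Car2* values was not tested. All 6 Bowman gland and all 6 sustentacular markers were called higher in GFP-positive cells, beside 14.2% of all genes. In tdTomato-positive cells 5 Bowman gland markers were higher and 1 lower, while 2 sustentacular markers were higher, 2 lower, and 2 within 2-fold, beside 17.2% of all genes higher and 23.2% lower. Of 6 multiciliated markers, 6 were higher in the tdTomato line, beside the same 17.2% of all genes, and 5 in the GFP line. In the GFP line *Ccdc153*, *Cdhr3*, and *Tmem212* passed the minimum only through the GFP-positive library. Their direction was fixed by it, so that count is not read against the 14.2% of all genes. The sums of multiciliated markers were 203, 1730, 235, and 6079 TPM in the same order.

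The genes with the pattern most like each member were found by the distance between log2(TPM + 1) profiles over the 4 libraries, each centered on its own mean, among 13006 genes that reached 10 TPM in 1 library or more. For *Gucy2d* they were *Adora2a* (distance 0.17), *Gpnmb* (0.47), and *1700084E18Rik* (0.54). *Adora2a*, which encodes an adenosine receptor, was 0.571, 0.0598, and 12.3 TPM in GFP-negative, GFP-positive, and tdTomato-negative cells and was listed at 0 in tdTomato-positive cells. For *Pde2a* they were *Samhd1* (0.097), *Gmip* (0.12), and *Cd86* (0.14), of which *Cd86* encodes a costimulatory protein of antigen-presenting cells. For *Car2* they included *Gm527* (0.28) and *Prkch* (0.28), of which *Prkch* encodes a protein kinase C. For *Gucy1b2* they were *4732416N19Rik* (0.18), *S100a3* (0.28), and *Tmem198* (0.37). For *Cnga3*, whose profile has 1 value above 0, they were *Fan1* (0.088), *Atrnl1* (0.13), and *Zdhhc2* (0.17). With 4 libraries, many genes can lie close to a profile, and these neighbours are a description only.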

How the data were processed

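RNA was measured by RNA-seq in 4 libraries of FACS-sorted MOE cells, each group having 1 library. The authors deposited 1 table of TPM values with 24421 gene symbols, each library summing to 1000000. The submitters' processing notes name mm10, Trimmomatic 0.36, and Salmon 1.4.0, while the methods of the study name a genome aligner and other counting tools. The annotation and any filter on genes are not given in the sources used here, and library kits differ between labels and methods. TPM values were used as deposited, with a pseudocount of 1, a call at 2-fold, and a minimum of 1 TPM in either library of a line for counts of calls. Salmon shares reads among transcripts with common sequence, which bears on *Trpc2* and *Pde2a*.

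The members and lists were chosen with earlier results of these data known. The named genes are the 6 members, the 4 highest genes of each list by TPM, the listed guanylyl cyclase, CNG, and TRPC genes, and the 3 nearest profiles of each member. The mature OSN list is given whole. Some genes under this rule are not reported here. *Rpl26*, *Xntrpc*, *Xndc1*, *Gm45837*, *Vmn2r29*, *Pde9a*, *Pde6h*, *Car4*, *Hpca*, *Ncald*, *Guca2b*, and the *Fpr-rs* genes were named after their values were seen. Alternatives were other pseudocounts, scalings, fold minimums, and TPM minimums, where median-ratio scaling divides a library by the median ratio of its genes to their geometric means over the libraries. The scripts were tested on simulated data. Gene models and transcripts are from GENCODE M21 and promoters from RefSeq (GRCm38.p6). Python 3.11.15, NumPy 2.4.6, and pandas 2.3.3 were used.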

Additional observations from a re-analysis of the deposited data

Results flagged for a closer look

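*Gucy1b2* had opposite calls in the lines, with a log2 difference of -1.79 in the GFP line and 1.69 in the tdTomato line. With scaling to the mature OSN genes it was positive in both lines (0.74 and 2.38), and with a pseudocount of 10 the values were -0.69 and 0.75, both within 2-fold. Among the genes of the same families and pathways, *Car4* (2.68 and -2.33), *Car6* (4.50 and -2.50), and *Car12* (2.11 and -2.34) had opposite calls in the other sense. *Car4* in both lines, and *Car6* and *Car12* in the tdTomato line, passed the 1 TPM minimum only through the library where they were high. Their directions there were fixed by it. These calls are therefore not read against the 1.50% of all genes that reached 1 TPM in each line and had this pair of calls. No test of these differences can be made without replicates.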

How the results depend on the processing

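No paired analysis was possible because there is 1 library in a group, which leaves no numbers to pair. A log2 difference is counted as moved here when it changed by more than 1.5-fold. The 9 member differences kept their sign with pseudocounts of 0.1 and 10, with median-ratio scaling, and after rescaling without the 24 highest genes. Of them, 3 moved with a pseudocount of 0.1, 6 with a pseudocount of 10, 3 with median-ratio scaling, and 0 after the rescaling. With scaling to the mature OSN genes, 6 of 9 kept their sign and 1 of 9 changed by less than 1.5-fold. *Gucy2d* in the GFP line, from values under 1 TPM, went from -0.56 to 0.15, and *Pde2a* kept its sign at -0.28, within 2-fold. In the GFP line *Car2* then had a log2 difference of 1.26 and *Gucy1b2* of 0.74, each reversed, and the number of members called higher went from 0 to 1 and the number called lower from 3 to 0. That scaling shifts all genes by 3.09 in the GFP line and 1.07 in the tdTomato line, and median-ratio scaling by 0.88 and 0.16. At a 4-fold minimum on the log2(TPM + 1) scale, 1 member was lower in the GFP line, and 0 were higher in the tdTomato line, as with a pseudocount of 10. Of all genes called in the GFP line, 23.9% were higher with TPM as deposited, 49.6% with median-ratio scaling, 37.2% after rescaling without the highest genes, and 90.9% with scaling to mature OSN genes. In the tdTomato line the last scaling moved this share from 42.6% to 76.2%. Of 88 counts of list genes called, 39 moved by over 1.5 times with that scaling and 34 with a pseudocount of 10. The unknown depth limits what can be said of low values, such as those of *Gucy2d* and *Cnga3*.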

Other observations

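Outside the members and their closest relatives, the cGMP-dependent kinase genes were low. *Prkg1* was 0.777, 0.849, 1.05, and 0.376 TPM in GFP-negative, GFP-positive, tdTomato-negative, and tdTomato-positive cells. *Prkg2* was 1.17 TPM in the GFP-negative and 2.57 TPM in the tdTomato-negative library and was listed at 0 in both reporter-positive libraries. *Pde6h*, a cone phosphodiesterase subunit gene, was listed at 9.43 TPM in tdTomato-positive cells and at 0 in the other libraries. *Car8*, a member of the carbonic anhydrase family without enzyme activity, was 0 and 16.1 TPM in the GFP pair and 0.479 and 29.2 TPM in the tdTomato pair.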
